A study of Mus musculus with 6 samples.

Results

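The genes of DNA replication and of mitosis were examined in embryonic mouse kidneys of a mutant for Yap, a coactivator of transcription that Hippo signalling restrains. The set holds 57 genes taken by symbol for their textbook roles, 28 of replication and of the passage from G1 to S phase and 29 of mitosis. Of these, 55 had at least 1 probe on the array, out of 19057 named genes in the deposited table, and together they had 112 probes. No probe was paired with Mki67 or Ccnb1 in the annotation used here. Total RNA of whole kidneys at E13.5 was hybridised to 6 Illumina bead arrays, 3 from controls and 3 from the group called YapCM-/-, with C57BL/6 and 129S1/SvImJ ancestry mixed in both groups. The labels do not spell out CM or name the alleles of either group. Knowledge of the study gives CM as cap mesenchyme, that is, the progenitors of the nephron at the bud tips, where Six2-driven Cre removes Yap while other cells of the organ keep it. The comparison asked which transcripts differ in the mutant organ.

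A cell enters S phase once D-type and E-type cyclins with their kinases release E2F factors from the retinoblastoma proteins, and E2F then turns on the genes that load and run the replication machinery. The helicase MCM2 to MCM7 is loaded at origins by CDC6 and CDT1, fired with CDC45 and GINS, and followed by the clamp PCNA and the polymerases. Later in the cycle a further wave of genes, for cyclin B and CDK1, spindle motors, the kinetochore checkpoint and cytokinesis, is held off by the DREAM complex and turned on by B-MYB and FOXM1 through a short promoter element called the CHR. Nephron progenitors and ureteric bud tips of the fetal kidney are cycling populations, and YAP is known in other organs as a driver of proliferation. In RNA of a whole organ, fewer cycling cells and less RNA per cell cannot be told apart.

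Values are the deposited log2 signals, which carry no visible background subtraction, so that differences of dim probes are understated. Yap1 itself read 9.75, 9.81 and 9.64 on the control arrays and 8.91, 8.72 and 8.99 on the YapCM-/- arrays, a log2 difference of -0.86 (limma adjusted p = 0.0102). The median of all tested genes differed by 0.0039. Of the listed kidney markers, whose summed linear signals were 10178 to 10884 in control and 11110 to 11763 in YapCM-/- arrays, 11 of 12 with a probe were above the filter on dim probes, and Cited1, a cap mesenchyme gene, stood at -0.72 on the log2 scale (adjusted p = 0.00662). Ret, a receptor of the ureteric bud tip, stood at 0.83 (adjusted p = 0.0147), and both of these passed. Six2, of the cap mesenchyme, stood at -0.36 (adjusted p = 0.193) and Eya1, of the same cells, at 0.34 (adjusted p = 0.242), each without overlap, and neither passed. Pax2, on the same list, stood at -0.36 (adjusted p = 0.193), also without overlap, and did not pass. Of the 11 tested kidney genes 7 were above 0 and 4 below. Erythroid markers, which come from blood cells in the organ and from lineages that also cycle, had summed linear signals of 44627 to 48846 in control and 50393 to 51203 in YapCM-/- arrays, without overlap, and none of the 8 passed the test. That sum was dominated by the bright probes of Hba-a1 and Hbb-y (control means 14.48 and 14.27). Taken singly, all 10 erythroid probes had overlapping groups, and 5 of the genes were above 0 and 3 below. The part of kidney or erythroid cells in the values below was not tested. Macrophage markers summed to 1178 to 1312 and 1212 to 1352, and of 5 gonad and adrenal markers 1 was above the filter. Endothelial markers summed to 4189 to 4473 in control and 4457 to 4939 in YapCM-/- arrays. For neural crest and neuron markers the sums were 762 to 820 and 723 to 989. Both of these overlapped. Control replicate 2 lay farthest from the others on the first principal component, and Xist was high on control replicate 2 and on YapCM-/- replicate 3, 1 array of each group.

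No replication or mitosis gene passed the test in YapCM-/- kidneys. Of the 112 probes, 93 of 50 genes were in the brighter 50% of the table and were tested, and 0 of the 93 reached an adjusted p of 0.05 in limma, against 0.177% of the 22640 tested probes (0.0751% higher and 0.102% lower). No member probe differed by 1.5-fold on the deposited scale, as 0.477% of all tested probes did. With the background subtracted 3 of the 93 did, 1 probe each of Kif20a, Kif23 and Nusap1, against 6.5% of all, and none of them passed. At an unadjusted p under 0.05 stood 10 of the 93, or 10.8%, 3 higher and 7 lower in the mutant, where the share over all tested probes was 11.5% (5.53% higher and 5.92% lower). Counted by genes, 6 of the 50 stood there, 2 higher and 4 lower, against 6.60% of the 11762 tested genes higher and 6.86% lower. The groups did not overlap at 13 of the 93 probes, or 14%, 5 higher and 8 lower, against 16.5% of all tested probes (8.11% higher and 8.41% lower). The share of members at either mark was thus near that of the whole table. The smallest adjusted p of any member was 0.0679, at 1 of the 4 tested probes of Kif23. With 1 array left out in turn, between 3 and 9 replication probes and between 2 and 5 mitosis probes were at an unadjusted p under 0.05, with 8.45% to 12.3% of all tested probes. The 3 came without YapCM-/- replicate 1 and the 9 without control replicate 3, and the 2 came without control replicate 1 or YapCM-/- replicate 2.

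Both lists were centred close to 0. Taking for each gene its tested probe with the highest mean, the 27 tested replication genes had a median log2 difference of 0.03, with 14 above 0 and 13 below, and ranged from -0.43 for Mcm7 to 0.33 for Cdt1. The 23 tested mitosis genes had a median of 0.07, with 13 above 0 and 10 below, and ranged from -0.26 for Kif11 to 0.24 for Kif20a. Both medians were nearer 0 without control replicate 2, to 0.02 each, and that of mitosis was -0.0020 when all probes of a gene were averaged. The median size of a difference was 0.10 in each list and 0.09 over the 11762 tested genes. Array by array, the median deviation of the 27 replication genes from their own means lay between -0.03 and 0.03, and that of the 23 mitosis genes between -0.02 and 0.06. No array carried either list far up or down.

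**Figure D1:**
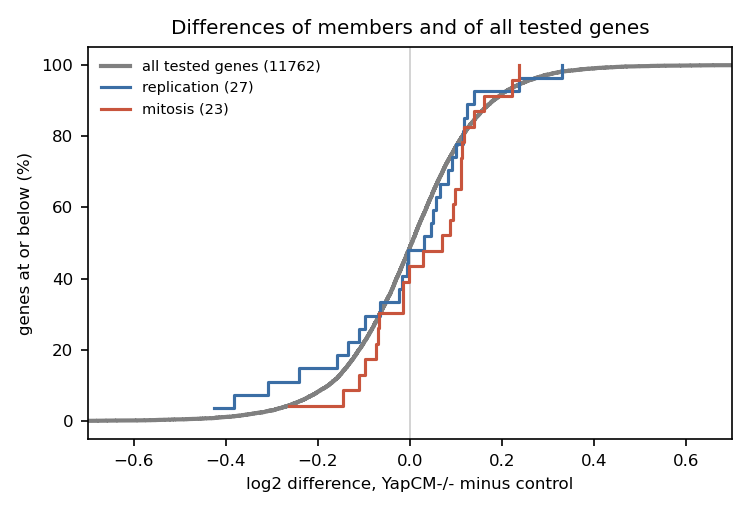
Cumulative share of genes (vertical axis, percent) at or below a log2 difference of YapCM-/- minus control (horizontal axis), 1 probe per gene, for the 27 tested replication genes, the 23 tested mitosis genes and all 11762 tested genes. Both coloured lines follow the grey line through 0, and they end at -0.43 and 0.33 for replication and at -0.26 and 0.24 for mitosis.

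The arrays bounded how large a change in the RNA of the whole kidney could have been missed. Each gene was taken at its brightest tested probe. For 46 of the 50 tested genes the 95% interval of the difference lay inside 1.5-fold in either direction, and for all 50 inside 2-fold. The 4 genes whose interval reached past 1.5-fold were Mcm7 (-0.61 to -0.24), Pcna (-0.73 to -0.03), Prim1 (-0.62 to 0.35) and Plk1 (-0.25 to 0.70). Dimmer tested probes of Kif23 (-0.75 to -0.34), Mcm6 (-0.67 to -0.17), Ccnd2 (0.03 to 0.68) and Top2a (-0.13 to 0.61) also reached past it. The bound for these genes thus holds for their brightest probe only. Over all tested genes 95.1% had an interval inside 1.5-fold. These bounds hold for the deposited scale and for the average over all cells of the kidney. A change within the cap mesenchyme alone was not bounded. With the background subtracted, 35 of the 50 intervals lay inside 1.5-fold and 48 inside 2-fold.

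**Figure D2:**
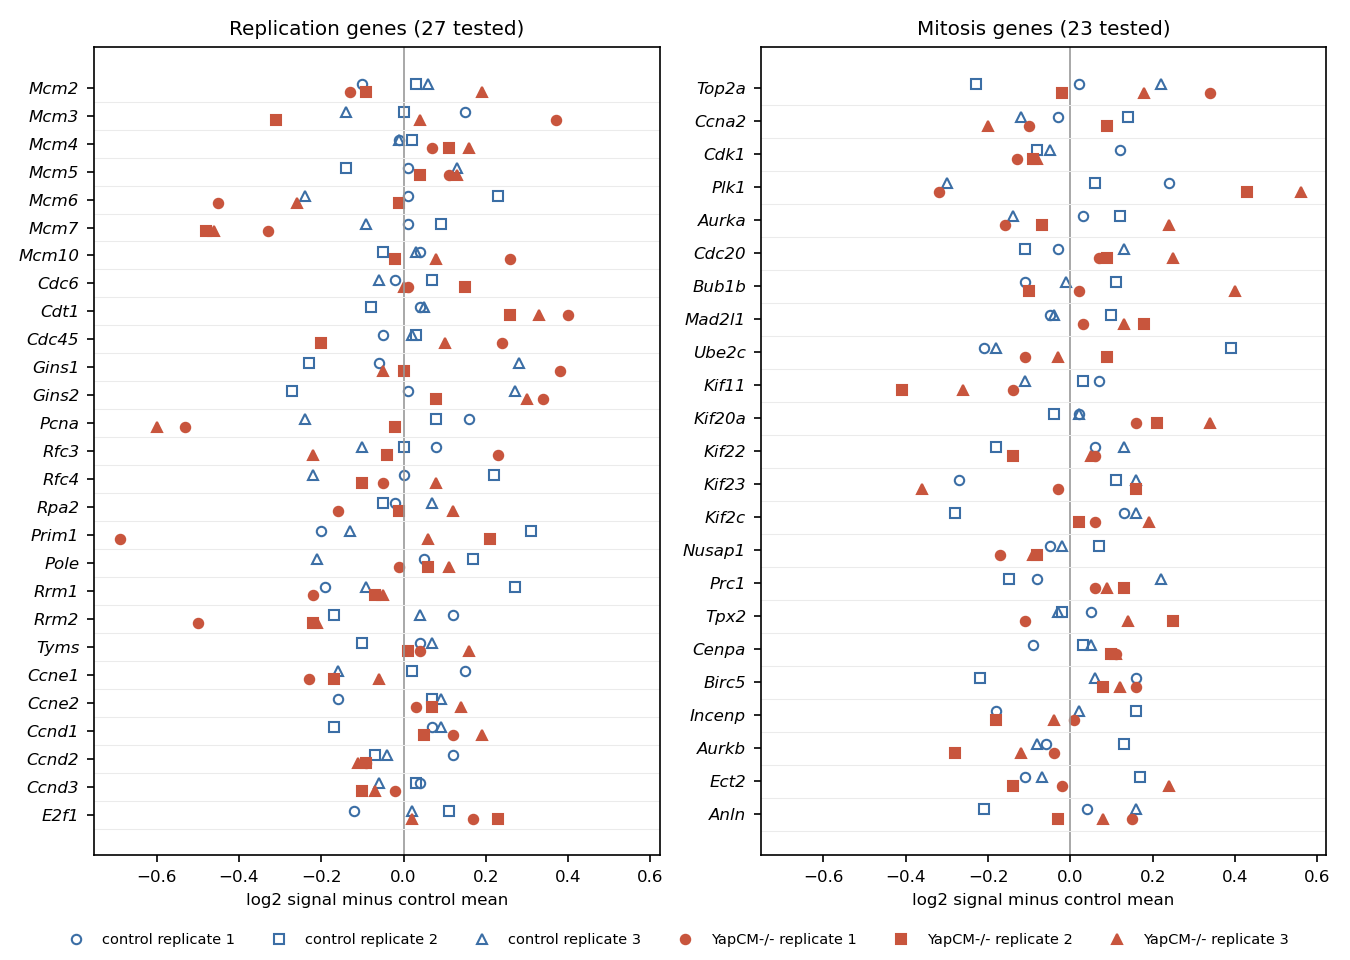
Log2 signal of each array minus the mean of the control arrays (horizontal axis) for each tested replication gene (left) and mitosis gene (right), on the tested probe with the highest mean. Open blue symbols are the 3 control arrays and filled red symbols the 3 YapCM-/- arrays, with 1 shape per replicate number. Mcm7 and Cdt1 stand clear of their controls, in opposite directions, while most genes overlap.

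Both lists carried their known regulatory letters in front of their genes, which the choice of members had not used. RefSeq promoter windows of 300 bases, from 250 before to 50 after the transcription start in GRCm38.p6, were at hand for 45 of the 57 genes, and each was searched on both strands. The core of the E2F site, written as TTCCCGC or TTGGCGC, was found in 12 of 21 replication promoters and in 4 of 24 mitosis promoters, or 57.1% and 16.7%, against 7.79% of all 27025 genes in the promoter table and 1286 of the 9495 tested on the arrays. The CHR, written as TTTGAA, was found in 2 of 21 replication promoters and in 18 of 24 mitosis promoters, or 9.52% and 75.0%, against 20.2% of all genes and 14.6% of those tested. The NF-Y box CCAAT was common to both, at 71.4% and 79.2%, against 41.1% and 43.1%. Of the 24 mitosis promoters 16 had the CHR within 50 bases of the start, a share of 66.7% where all genes had 5.94%. Of the 22 E2F matches in replication promoters 2 overlapped an NF-Y box, as did 3 of the 5 in mitosis promoters. Matches were counted per window, so the E2F site of Ect2, which lies in both of its windows, entered these mitosis counts 2 times. The letters TTGG that open TTGGCGC also close the reverse complement of CCAAT, so some overlap is built into the motifs. No CHR match in these promoters overlapped another of the motifs. A match of letters is a description and not a measured binding site.

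**Figure D3:**
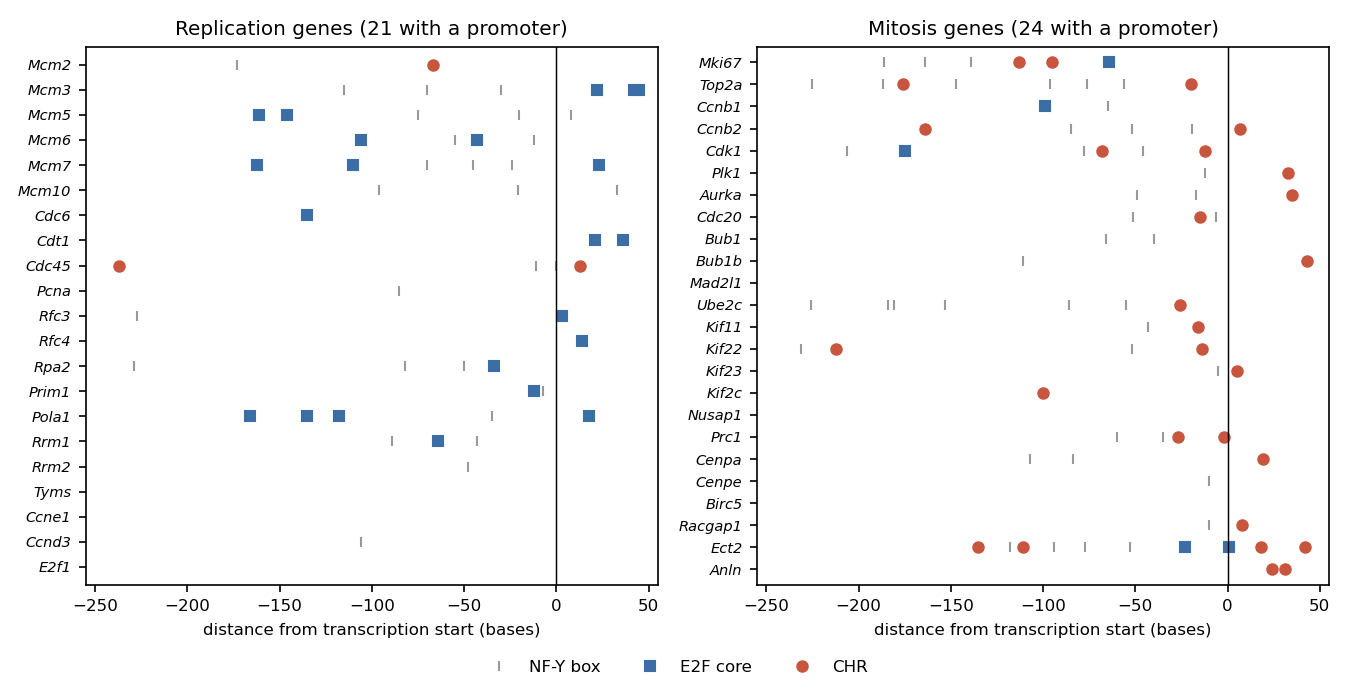
Position of each match, in bases from the transcription start (horizontal axis, start at 0), for the E2F core (blue squares), the CHR (red circles) and the NF-Y box (grey ticks) in the 21 replication and 24 mitosis promoters of the RefSeq table. Squares appear in 12 of the 21 replication promoters, and circles gather near the start in the mitosis panel.

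The promoters of 5 genes are printed here to show the letters beside the genes. They were chosen after the values were seen, from members that hold the E2F core or the CHR and had a probe at an unadjusted p under 0.05. Pcna and Rrm2, which also had such a probe, lacked the E2F core in their windows. The 5 are Mcm7 (chr5:138171834-138172133, minus strand, the first of its 2 windows with a match), Mcm6 (chr1:128359656-128359955, minus strand) and Cdt1 (chr8:122567765-122568064, plus strand) for replication, and Kif23 (chr9:61946750-61947049, minus strand) and Kif11 (chr19:37376132-37376431, plus strand) for mitosis. Each is written 5′ to 3′ along its gene. Capitals mark the E2F core, or its reverse complement, in the replication genes and the CHR, or its reverse complement, in the mitosis genes.
Mcm7: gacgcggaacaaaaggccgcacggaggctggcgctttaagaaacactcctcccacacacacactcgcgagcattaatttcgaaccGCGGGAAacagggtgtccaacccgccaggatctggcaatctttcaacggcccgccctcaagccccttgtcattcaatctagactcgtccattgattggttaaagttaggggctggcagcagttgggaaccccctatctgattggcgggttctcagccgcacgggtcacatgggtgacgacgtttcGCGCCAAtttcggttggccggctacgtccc
Mcm6: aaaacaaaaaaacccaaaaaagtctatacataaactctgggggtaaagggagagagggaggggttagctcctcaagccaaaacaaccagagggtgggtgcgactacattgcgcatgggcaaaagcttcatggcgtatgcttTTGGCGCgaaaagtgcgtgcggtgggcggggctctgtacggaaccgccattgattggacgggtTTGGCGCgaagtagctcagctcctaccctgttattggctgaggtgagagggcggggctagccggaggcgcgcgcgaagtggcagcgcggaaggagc
Cdt1: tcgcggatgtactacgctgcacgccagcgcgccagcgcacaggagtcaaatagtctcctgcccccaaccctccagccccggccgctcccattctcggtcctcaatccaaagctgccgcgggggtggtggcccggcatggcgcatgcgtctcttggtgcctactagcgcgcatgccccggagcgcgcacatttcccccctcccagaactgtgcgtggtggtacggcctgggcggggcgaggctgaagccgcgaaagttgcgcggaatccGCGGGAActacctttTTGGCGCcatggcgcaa
Kif23: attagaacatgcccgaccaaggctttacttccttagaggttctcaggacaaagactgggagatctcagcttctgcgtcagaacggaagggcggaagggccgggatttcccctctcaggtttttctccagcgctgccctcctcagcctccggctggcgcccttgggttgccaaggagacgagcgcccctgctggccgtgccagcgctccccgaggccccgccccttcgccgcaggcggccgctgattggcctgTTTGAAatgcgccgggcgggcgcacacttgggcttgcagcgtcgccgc
Kif11: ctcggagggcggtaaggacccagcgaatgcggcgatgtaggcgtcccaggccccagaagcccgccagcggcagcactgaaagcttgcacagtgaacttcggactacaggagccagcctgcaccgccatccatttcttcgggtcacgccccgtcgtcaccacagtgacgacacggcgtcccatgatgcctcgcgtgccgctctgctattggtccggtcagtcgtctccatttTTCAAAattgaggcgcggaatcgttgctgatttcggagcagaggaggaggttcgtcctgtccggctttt
Mcm7, Mcm6 and Cdt1 each had 2 E2F matches in these windows, and Kif23 and Kif11 had 1 CHR match each.

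The 6 subunits of the replicative helicase, which work as 1 ring, did not stand together. Mcm7 read 11.17, 11.25 and 11.07 on the control arrays and 10.83, 10.68 and 10.70 on the YapCM-/- arrays, so that every mutant array lay below every control array. The difference was -0.43 (SE 0.084, adjusted p = 0.108) and did not pass, nor did it without control replicate 2 (-0.38, adjusted p = 0.277). Its dimmer probe stood at -0.09 (adjusted p = 0.759), from 9.07 to 9.21 in control and from 8.94 to 9.18 in mutant kidneys, with overlap. Mcm6 read 12.55, 12.77 and 12.30 in control and 12.09, 12.53 and 12.28 in mutant kidneys on its brightest probe, at -0.24 (SE 0.139, adjusted p = 0.555), with overlap. A further Mcm6 probe had 11.79, 12.10 and 11.69 against 11.35, 11.44 and 11.54, at -0.42 (SE 0.111, adjusted p = 0.205) and without overlap, and 2 more stood at -0.05 and -0.06.

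The other 4 helicase subunits stayed close to their controls. Mcm4 read 12.86, 12.89 and 12.86 in control and 12.94, 12.98 and 13.03 in mutant kidneys, a small difference of 0.12 (SE 0.073, adjusted p = 0.586) without overlap. Mcm5 read 11.82, 11.67 and 11.94 against 11.92, 11.85 and 11.94, at 0.09 (adjusted p = 0.755). Mcm3 was the most scattered, at 9.11, 8.96 and 8.82 against 9.33, 8.65 and 9.0, and differed by 0.03 (adjusted p = 0.963). The mutant arrays held both its highest and its lowest value. Mcm2 read 10.32, 10.45 and 10.48 against 10.29, 10.33 and 10.61, at -0.0074 (adjusted p = 0.987). Within 1 complex, then, Mcm7 and Mcm6 were on the low side and Mcm4 on the high side, and none of the 6 passed.

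**Figure D4:**
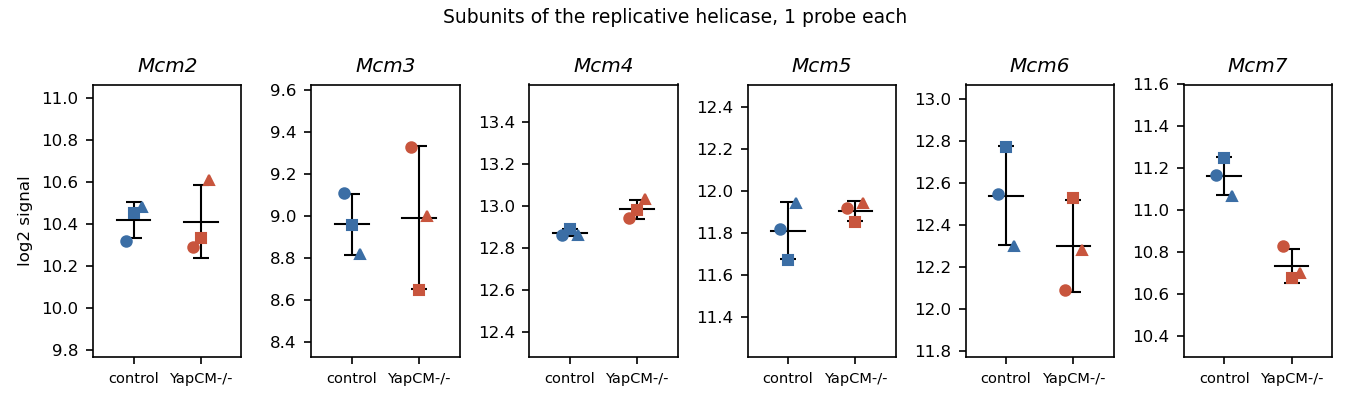
Log2 signal (vertical axis, each panel spanning the same range) of the 6 helicase subunits on the tested probe with the highest mean, for 3 control arrays (blue) and 3 YapCM-/- arrays (red), with the mean and SD as bars and 1 shape per replicate number. The groups are apart for Mcm7, at 11.07 to 11.25 against 10.68 to 10.83, and by a narrow gap for Mcm4.

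Among the proteins that load and fire the helicase, Cdt1, the licensing factor that brings the ring to origins, had the smallest p. It read 10.84, 10.72 and 10.85 in control and 11.20, 11.06 and 11.13 in mutant kidneys, at 0.33 (SE 0.079, adjusted p = 0.189). All 3 mutant arrays were above all 3 control arrays. Gins2, a subunit of GINS, which joins the ring when origins fire, read 10.20, 9.92 and 10.46 against 10.53, 10.27 and 10.49, at 0.24 (SE 0.131, adjusted p = 0.542), with its other probes at 0.08 and 0.17. Gins1 stood at 0.12, Mcm10 at 0.10, Cdc6, the other loader, at 0.06 and Cdc45 at 0.05, each with overlapping groups. Of the 12 helicase and loading genes 9 were above 0 and 3 below, with a median of 0.07.

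At the fork, Pcna, the sliding clamp that holds the polymerases on DNA, read 11.35, 11.27 and 10.95 in control and 10.66, 11.17 and 10.59 in mutant kidneys. The difference was -0.38 (SE 0.156, adjusted p = 0.398), and YapCM-/- replicate 2 lay within the control range while the other mutant arrays lay below it. Prim1, the small subunit of primase, was the most variable member over the 6 arrays, with a range of 1.00, at 8.53, 9.04 and 8.60 against 8.04, 8.94 and 8.79 (difference -0.13, adjusted p = 0.870). It was -0.23 with the background subtracted. Its direction rested on single arrays: the difference was 0.14 without YapCM-/- replicate 1 and 0.02 without control replicate 2. Pole, the catalytic subunit of polymerase epsilon, read 9.15, 9.27 and 8.89 against 9.09, 9.16 and 9.21, at 0.05 (adjusted p = 0.905). Rfc3 and Rfc4, subunits of the clamp loader, stood at -0.0053 and -0.02, and Rpa2, which coats single strands, at -0.02. The single probe of Pola1, of polymerase alpha, was too dim to be tested, at 7.06 and 7.01.

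The enzymes that make the building blocks of DNA gave no common direction. Rrm2, the regulated subunit of ribonucleotide reductase, read 9.97, 9.68 and 9.89 in control and 9.35, 9.63 and 9.64 in mutant kidneys on its brightest probe, at -0.31 (SE 0.107, adjusted p = 0.319), with the groups just apart. Its other tested probes stood at -0.0012 and 0.08, with overlap. Rrm1, the large subunit of the same enzyme, read 11.03, 11.49 and 11.13 against 11.00, 11.15 and 11.17, at -0.11 (adjusted p = 0.789), and a second probe stood at 0.01. Tyms, thymidylate synthase, read 11.55, 11.41 and 11.58 against 11.55, 11.52 and 11.67, at 0.07 (adjusted p = 0.827), and its 5 tested probes lay between -0.04 and 0.07.

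The cyclins that open S phase were close to control levels. Ccnd1, cyclin D1, known as a YAP-responsive gene in some other tissues, read 13.07, 12.83 and 13.09 in control and 13.12, 13.05 and 13.19 in mutant kidneys, at 0.12 (SE 0.091, 95% interval -0.08 to 0.33, adjusted p = 0.663). Its other probes stood at 0.09 and -0.10. Ccne1, cyclin E1, read 9.33, 9.20 and 9.02 against 8.95, 9.01 and 9.12, at -0.16 (adjusted p = 0.583), and Ccne2 stood at 0.08. E2f1, the activator of the replication genes, read 9.81, 10.04 and 9.95 against 10.10, 10.16 and 9.95, at 0.14 (adjusted p = 0.618). Ccnd2, cyclin D2, named after its values were seen, had 4 tested probes that parted: the brightest pair stood at -0.10 and -0.19 without overlap, and a dimmer one at 0.36 (adjusted p = 0.397), with overlap. The 3 probes of Ccnd3 lay between -0.08 and -0.07.

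In mitosis, the genes of entry held both scattered and steady members. Top2a, the topoisomerase that untangles chromosomes, read 10.95, 10.70 and 11.15 in control and 11.27, 10.91 and 11.11 in mutant kidneys, at 0.16 (SE 0.127, adjusted p = 0.686). Cdk1, the mitotic kinase, read 10.84, 10.64 and 10.67 against 10.59, 10.63 and 10.64, at -0.10 (SE 0.081, adjusted p = 0.710). Plk1, polo-like kinase, read 10.72, 10.54 and 10.18 against 10.16, 10.91 and 11.04, at 0.22 (SE 0.213, adjusted p = 0.756), and its mutant arrays lay on both sides of the control range. Ccna2, cyclin A2, stood at -0.07 and Aurka, the centrosome kinase, at -0.0020. Ccnb2 was too dim to be tested, at 7.02 and 7.03.

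Genes of the spindle checkpoint, and of the ubiquitin ligase APC that it restrains, had overlapping groups at every tested probe. Cdc20, the activator of the APC, read 11.37, 11.29 and 11.53 in control and 11.47, 11.49 and 11.65 in mutant kidneys, at 0.14 (adjusted p = 0.608), with its other probes between -0.10 and -0.0056. Mad2l1, which holds CDC20 back, read 10.76, 10.91 and 10.77 against 10.84, 10.99 and 10.94, at 0.11 (adjusted p = 0.669), and its second probe stood at -0.14. Bub1b, a checkpoint kinase relative, read 10.84, 11.06 and 10.94 against 10.97, 10.85 and 11.35, at 0.11 (adjusted p = 0.80), and its second probe stood at -0.24 (adjusted p = 0.437). For all 3 genes the probes thus lay on both sides of 0. Ube2c, the ubiquitin-conjugating enzyme of the APC, stood at -0.02, and Bub1 was too dim to be tested.

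The spindle motors held the mitosis members with the smallest p, in both directions. Kif23, a kinesin of the central spindle that works with RACGAP1 in cytokinesis, is named for its values, which were seen first. Its probe with the smallest p read 10.08, 10.39 and 10.23 in control and 9.67, 9.69 and 9.70 in mutant kidneys, at -0.55 (SE 0.091, adjusted p = 0.0679), every mutant array below every control array. Its brightest probe, at 11.92, 12.30 and 12.35 against 12.16, 12.35 and 11.83, stood at -0.07 (adjusted p = 0.900), another at -0.24 (adjusted p = 0.430) and the dimmest at 0.13 (adjusted p = 0.613). The 95% intervals of the first and the last of these probes, -0.75 to -0.34 and -0.06 to 0.32, did not touch. Without control replicate 2 the probe at -0.55 stood at -0.47 (adjusted p = 0.153), and with the background subtracted at -0.63 (adjusted p = 0.327).

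Kif11, the motor that pushes the spindle poles apart, read 9.72, 9.68 and 9.54 in control and 9.51, 9.24 and 9.39 in mutant kidneys, at -0.26 (SE 0.093, adjusted p = 0.324), with the groups just apart. Kif20a, a motor of cytokinesis, was on the other side of 0 with a dim probe, at 7.23, 7.17 and 7.23 against 7.37, 7.42 and 7.55, a difference of 0.24 (SE 0.080, adjusted p = 0.305) without overlap. With the background subtracted the same probe stood at 1.19 (adjusted p = 0.270), so that its size depends on the background. Nusap1, a microtubule bundling protein, read 11.80, 11.92 and 11.83 against 11.68, 11.77 and 11.76, at -0.11 (adjusted p = 0.633), a narrow gap. The remaining members of this role, Kif22, Kif2c, Prc1 and Tpx2, stood between -0.02 and 0.10, with overlap. Of the 13 tested probes of spindle genes 4, or 30.8%, were at an unadjusted p under 0.05, and 2 of these were probes of Kif23. This was the highest share of any role, where all tested probes gave 11.5%. In each of the other mitosis roles 0 tested probes stood there. The mitosis list as a whole had 4 of 39, or 10.3%.

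**Figure D5:**
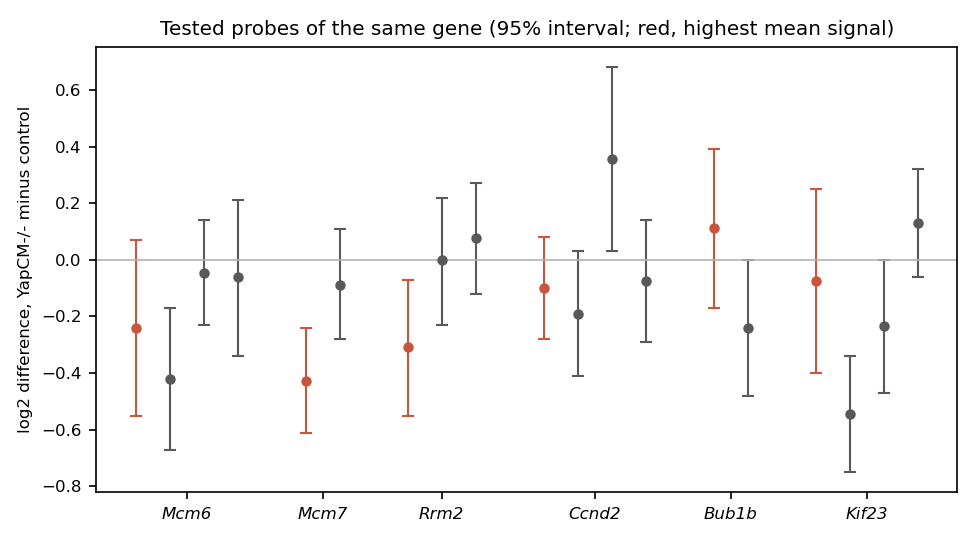
Log2 difference of YapCM-/- minus control (vertical axis) with its 95% interval for each tested probe of 6 genes, from the highest mean signal (red) to the lowest. The 4 probes of Kif23 run from -0.55 to 0.13, and those of Ccnd2 from -0.19 to 0.36.

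At the centromere, Cenpa, the histone variant that marks it, read 12.99, 13.11 and 13.13 in control and 13.19, 13.18 and 13.19 in mutant kidneys, at 0.11 (SE 0.076, adjusted p = 0.624), with a narrow gap and a second probe at 0.12. Aurkb, the kinase of the chromosomal passenger complex, read 10.34, 10.53 and 10.32 against 10.36, 10.12 and 10.28, at -0.15 (adjusted p = 0.609). Birc5, survivin, of the same complex and known elsewhere as a YAP-responsive gene, read 11.42, 11.04 and 11.32 against 11.42, 11.34 and 11.38, at 0.12 (95% interval -0.11 to 0.34, adjusted p = 0.719). Its 3 probes lay between 0.06 and 0.12. Incenp, the scaffold of the complex, stood at -0.07. So the kinase and its scaffold were below 0 and survivin above, all within the spread of the arrays. In cytokinesis, Anln, anillin of the contractile ring, read 11.01, 10.76 and 11.13 against 11.12, 10.94 and 11.05, at 0.07 (adjusted p = 0.862), with overlap. Ect2, which activates RhoA at the furrow, read 7.65, 7.93 and 7.69 against 7.74, 7.62 and 8.0, at 0.03 (adjusted p = 0.955), also with overlap. Cenpe and Racgap1 were too dim to be tested.

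The 19 untested probes gave no call either. Differences of such dim probes are understated on this scale, so they could not show whether a change was hidden. With no filter on dim probes, 0 of the 112 passed in limma, 12 were at an unadjusted p under 0.05 where the table as a whole gave 8.91%, and the smallest unadjusted p among the 19 dim probes was 0.122, at a dim probe of Mcm10.

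No further gene of the same machinery passed the test. Of 35 tested genes of replication outside the members, with 65 tested probes, 0 passed in limma, and 10 probes were at an unadjusted p under 0.05, 7 of them higher, or 15% against 11.5% of all tested probes. Counted by genes this was 8 of 35, or 22.9%, 6 higher and 2 lower, where 6.60% of all tested genes were higher and 6.86% lower. Gins4, the partner of Gins2, read 10.50, 10.48 and 10.68 in control and 10.98, 10.81 and 10.89 in mutant kidneys, at 0.34 (SE 0.087, adjusted p = 0.201), without overlap. Chaf1b, a subunit of the chromatin assembly factor CAF-1, read 9.75, 9.76 and 9.99 against 10.27, 10.06 and 10.23, at 0.35 (SE 0.096, adjusted p = 0.212), also without overlap. Of 51 tested genes of mitosis outside the members, with 91 tested probes, 0 passed. Here 9 probes, or 9.89%, were at an unadjusted p under 0.05, 2 higher and 7 lower. Over all tested probes 5.53% were higher and 5.92% lower. By genes there were 8 of 51, or 15.7%, 2 higher and 6 lower, against the same 6.60% and 6.86% of all tested genes. Spc24, a subunit of the NDC80 complex at the kinetochore, read 9.89, 10.11 and 9.92 against 9.57, 9.56 and 9.02, at -0.59 (SE 0.142, adjusted p = 0.191), with a dimmer probe at -0.14. Cdc25c, the phosphatase that activates CDK1, read 8.65, 8.57 and 8.57 against 8.47, 8.22 and 8.18, at -0.31 (adjusted p = 0.249), and at -0.49 with the background subtracted, with its other tested probe at -0.05. The medians of these lists were 0.02 and -0.0017, and with 1 array left out they lay between 0.03 and 0.06 and between -0.05 and 0.0004.

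Genes that brake the cycle were tested in 15 cases, with 30 tested probes, and 0 passed in limma. At an unadjusted p under 0.05 stood 6 of the probes, or 20.0%, 3 higher and 3 lower, against 11.5% of all tested probes. Btg1, an antiproliferative gene, read 12.23, 12.08 and 12.08 in control and 12.38, 12.40 and 12.39 in mutant kidneys, at 0.26 (SE 0.077, adjusted p = 0.246), and a second probe stood at 0.17. Cdkn1a, the CDK inhibitor p21, read 8.26, 8.21 and 8.14 against 8.35, 8.61 and 8.31, at 0.22 (SE 0.095, adjusted p = 0.417), and at 0.37 with the background subtracted, with further probes at 0.11 and -0.11. E2f4, named after its values were seen, had the next smallest p and went the other way, at -0.27 (adjusted p = 0.418). Of the 15 genes 8 were above 0 and 7 below. The median of the brakes was 0.09, and with 1 array left out it lay between 0.0043, without control replicate 1, and 0.07. With no filter on dim probes it was 0.017.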

How the data were processed

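Per the labels' protocols, column-purified RNA of whole kidneys was turned into labelled cRNA for Illumina bead arrays. The deposited values are log2 signals of 45281 probes with 1 column per sample. Their sorted columns differ by at most 0.00608, as quantile normalization leaves them, while software and background step are not given in the sources used. The table from before normalization was left out, because its 12 columns of per-sample values carry names that match no label.

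Probes were named through the platform annotation, with 34885 having 1 gene symbol, 18 several and 10378 none. The 50% of probes with a mean log2 above 7.29 were fitted in 2 groups of 3 arrays by limma (version 3.58.1, R version 4.3.3, lmFit then eBayes, two-sided tests). Benjamini-Hochberg adjustment ran over all 22640 tested probes. A gene was represented by its brightest tested probe. Intervals are 95% limits from the same moderated fit. On simulated data made from these arrays the fit recovered 78.5% of probes changed by 0.5 and 4.78% of those changed by 0.25 on the log2 scale, with 9.82% of its calls false. The simulated noise was normal and independent between probes, and 200 probes were changed, some of them by 1. The shares hold for that setting and may overstate what the fit could call in these data. Here a Kif23 probe at -0.55 and a Spc24 probe at -0.59 did not pass. The labels do not say whether replicates came from separate embryos. A probe of Xist read 10.31 on control replicate 2, against 6.99 and 7.14 on control replicates 1 and 3. The same probe read 10.27 on YapCM-/- replicate 3, against 7.04 and 7.12 on YapCM-/- replicates 1 and 2. The arrays of a group thus did not all carry the same RNA, but the spread between the remaining arrays may be technical. The p-values measure only the spread between these samples, and their number, 3 per group, limits the precision. Values on each array are given for the 3 genes of each role with the smallest p and for Mcm2 to Mcm7, and from each of the other lists for the 2 genes with the smallest p. The members, lists and tests were chosen with earlier results of these data known. Promoters are those of RefSeq for GRCm38.p6.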

Additional observations from a re-analysis of the deposited data

How the results depend on the processing

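Each result was recomputed under 14 settings of the fit: other filters on dim probes, trended or robust eBayes, weights for arrays, a replicate block, background subtraction, median centring and each array left out in turn. The count of replication probes called stayed at 0 in limma under all of them. The count of mitosis probes was 0 except with the replicate block, where 1 probe passed, that of Kif23 at -0.55 (adjusted p = 0.0321). The block is not supported as a pairing: same-numbered arrays deviated together with correlations of 0.132, 0.142 and -0.021, and YapCM-/- replicate 1 correlated best with control replicate 3 (0.23). With the block the whole table had 138 called probes in place of 40. It had 26 among the brightest 25% of probes and 0 with the background subtracted, where 9.63% of probes were at an unadjusted p under 0.05, and between 6 and 27 with 1 array left out (6, 9 and 12 without control replicates 3, 1 and 2, and 25 without YapCM-/- replicate 2). The median of mitosis genes, 0.07, was 0.0195 with no filter on dim probes and -0.0020 with the mean of the probes of a gene. With 1 array left out it lay between 0.0241, without control replicate 2, and 0.0766, and was 0.04 without YapCM-/- replicate 3, and that of replication genes between 0.02 and 0.03. Of 516 recomputed differences of 37 named genes, 500 kept direction and side of the threshold and 16, of 8 genes near 0, changed sign. Mcm2 turned to 0.0173 with array weights. With 1 array left out, Mcm2 ran from -0.1068 to 0.0526, Mcm3 from -0.1370 to 0.2038, Prim1 from -0.3102 to 0.1406, Pole from -0.0581 to 0.1328, Rrm1 from -0.2039 to 0.0272, Bub1b from -0.0359 to 0.2150, Ect2 from -0.0785 to 0.1146 and Anln from -0.0365 to 0.1500. The medians of the further replication, mitosis and brake genes were recomputed by a choice made after seeing the data. Differences near 0.25 were seldom called in the simulated data (4.78%), so changes of that size, and some larger ones, may have been missed with 3 arrays per group.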

Other observations

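Probes of the same gene often fell on both sides of 0 in these arrays, though their intervals mostly overlapped. Of the 24 members with several tested probes, 12 had probes on both sides of 0, with a median spread of 0.14 between the highest and the lowest log2 difference and a largest spread of 0.68, for Kif23. With limits rounded to 2 decimals, Kif23 was also the only one of the 24 in which the 95% intervals of 2 probes lay apart. For Ccnd2 the rounded limits of 2 probes met at 0.03, so whether those intervals touch was not settled at this rounding. Within each array, the Kif23 probe with the smallest p, set against its brightest probe and centred on the control mean, stood at 0.11, 0.05 and -0.16 in control and at -0.53, -0.70 and -0.18 in YapCM-/- kidneys. The same contrast for the probes of Mcm7 gave -0.05, 0.17 and -0.12 in control and -0.36, -0.27 and -0.38 in YapCM-/- kidneys. In these genes the mutant arrays lay below the control arrays, for Kif23 by a gap of 0.02 only. The same contrast overlapped for the other genes computed: Mcm6 lay between -0.08 and 0.07 in control and between -0.42 and -0.06 in YapCM-/- kidneys, and Ccnd2 between -0.08 and 0.10 and between -0.13 and -0.05. The transcripts that each probe reads were not analysed here, and these contrasts were chosen after their values were seen.

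Among the members the scatter between arrays differed widely. Over the 6 arrays Prim1 spanned 1.00, Plk1 0.88 and Pcna 0.76 on the log2 scale, while Mcm7, with the lowest difference of the replication genes, spanned 0.57 with an SD of 0.09 in control and 0.08 in YapCM-/- kidneys.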
